A study of Mus musculus with 12 samples.

Results

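Gonadal white adipose tissue (GWAT) of HoipA-KO mice was compared between a high-fat diet (HFD) and a control diet (CD), which accounts for 6 of the 12 RNA sequencing libraries of the study, 3 for each diet. The mice were Hoip fl/fl AdipoQ.Cre+, so that Hoip (gene symbol Rnf31) was deleted in cells that express adiponectin, the mature adipocytes, while the other cells of the tissue kept the gene. Hoip fl/fl AdipoQ.Cre- littermates, named WT here, carried the same floxed alleles and gave 3 libraries on each diet. All mice were males of 22 to 24 weeks that had eaten the CD (14% fat by the labels) or the HFD (60% fat) for 16 weeks from 6 weeks of age. Each library held GWAT of 3 mice, pooled because the depots of HoipA-KO mice were too small for single extractions, so the error bars below are between pools and not between mice. The libraries are named by group and pool, such as HFD pool 2, and belong to HoipA-KO mice unless WT is stated.

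HOIP is the catalytic subunit of LUBAC, the complex that joins ubiquitin molecules into linear chains, and these chains hold together the signalling complex under the TNF receptor and keep it from turning into a death-inducing one. White adipocytes store triglyceride under a coat of perilipin and secrete hormones such as leptin and adiponectin. In obesity the gonadal depot normally enlarges, adipocytes die, and macrophages that take up lipid gather around the dead cells in crown-like structures. The question here is which genes differed between the diets where adipocytes lacked HOIP, and how large a difference the 6 pools could have hidden.

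No gene passed an adjusted p of 0.05 for HFD against CD in HoipA-KO GWAT, of 16826 genes tested in edgeR with p-values adjusted by Benjamini-Hochberg (0% called, lowest adjusted p = 0.999). At an unadjusted p under 0.05 there were 443 genes (2.63% of those tested), of which 311 had a higher estimate on HFD (1.85%) and 132 a lower one (0.785%). DESeq2's Wald test called 19 genes (0.114% of the 16740 with an adjusted p), 16 higher and 3 lower, and had 588 at an unadjusted p under 0.05. limma's voom with sample quality weights called 0 and had 1959 genes at an unadjusted p under 0.05, 926 higher and 1033 lower. Its weights were 4.72 for CD pool 1 and 1.99 for HFD pool 3, against 0.444 to 0.744 for the others. The voom tallies therefore lean on few pools. A replicate block called 0 with 1300 (7.73%), 622 higher and 678 lower. The excess of higher over lower estimates was therefore absent in both, and without CD pool 2 there were 208 higher and 195 lower. In 565 genes every HFD pool lay above every CD pool (3.36%) and in 417 every HFD pool lay below (2.48%), together 5.84% of the genes. Estimates were above 0 for 8267 genes (49.1%) and below 0 for 50.9%, and the median log2 fold change was -0.0038.

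The intervals show what sizes of change remained possible. For 11481 genes (68.2%) the 95% interval of the log2 fold change lay within -1 to 1, that is within a 2-fold change either way. Among the 9674 genes with a mean of at least 10 CPM (counts scaled to library size, with TMM normalization) it did so for 8901 (92%). The median interval reached 0.51 to either side of the estimate, and 0.37 in the genes of at least 10 CPM, while the median size of the estimates was 0.14. Estimates above 1 in size were found for 621 genes, of which 83 had at least 10 CPM, 62 of these higher and 21 lower on HFD. No gene of at least 10 CPM had all 3 HFD pools at least 2-fold above the highest CD pool, or at least 2-fold below the lowest.

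The pools held 47472601 to 60540260 estimated counts, so 3 counts correspond to 0.0496 to 0.0632 CPM. In principal components over 13964 genes, the first component (53.5% of the variance) placed HFD pool 2 (-24.5) beside CD pool 2 (-34.3), with CD pools 1 and 3 at -5.91 and 7.28 and HFD pools 3 and 1 at 11.7 and 45.8. The diets therefore overlapped on it, as they did on the second component (21.2%). HFD pool 1 carried transcripts of other tissue. Myh11, the myosin of smooth muscle, had 1479 CPM there and 36.2 to 73.5 in the other 5 pools, and Crisp1, a secretory protein of the epididymis, had 1337 CPM there and 0 to 1.81 elsewhere. Traces of epididymal transcripts were also found in CD pool 3, where Lcn5 had 65.8 CPM, and Adam7 had 23.7 CPM in HFD pool 3 and 14.7 in CD pool 3. The 18S ribosomal RNA sequence Rn18s-rs5 took 0.119% and 0.115% of counts in HFD pools 1 and 3, against 3.63% in HFD pool 2 and 1.53 to 4.03% in the CD pools. These genes were picked after their values were seen, and their part in the results below was not tested.

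**Figure D1:**
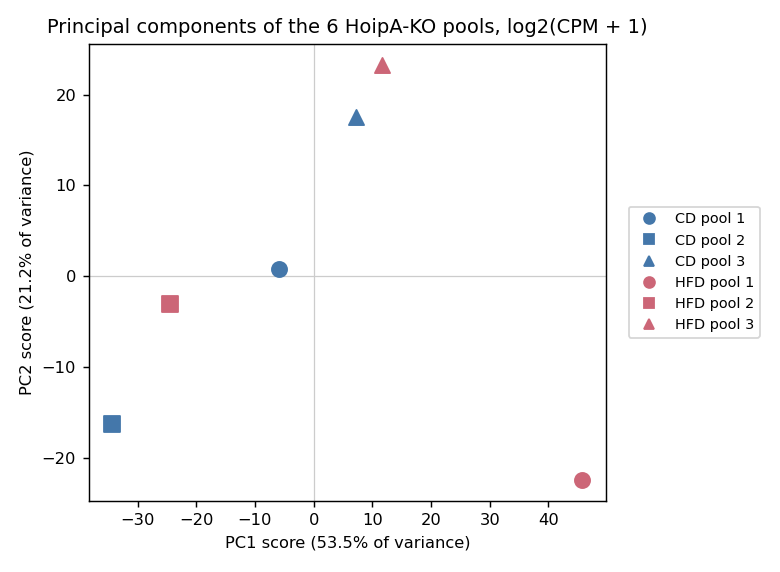
Position of the 6 HoipA-KO pools on the first and second principal component of log2(CPM + 1), with the share of variance on each axis label, the diet given by colour and the pool by shape. HFD pool 2 lies next to CD pool 2 and HFD pool 3 next to CD pool 3, while HFD pool 1 lies alone at 45.8 on the first component.

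Rnf31 itself had 18.3, 18.0 and 22.3 CPM in CD pools 1 to 3 and 20.5, 19.0 and 22.9 in the HFD pools. The diets overlapped, and the log2 fold change was 0.09 (95% interval -0.23 to 0.42). The counts cover whole transcripts and every cell type of the tissue, so the deletion in adipocytes cannot be read from this gene.

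Among genes of at least 5 CPM whose diets did not overlap, those with the lowest unadjusted p included receptors of resident macrophages. Cd163, the haemoglobin scavenger receptor of tissue-resident macrophages, had 7.84, 6.97 and 7.34 CPM in the CD pools and 15.0, 13.4 and 14.4 in the HFD pools. Every HFD pool lay above the CD pools, with a log2 fold change of 0.95 (standard error 0.13, unadjusted p = 0.000189). Its adjusted p was 0.999 by edgeR and 6.36e-07 by DESeq2's Wald test. Vsig4, a complement receptor of resident macrophages, had 5.19, 4.41 and 8.39 CPM on CD and 15.7, 14.4 and 20.2 on HFD (log2 fold change 1.49). Both receptors were low in every pool. The HFD pools were close to each other, but a low p without overlap picks genes with such pools, so this closeness is no separate result.

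The same set of genes with higher values on HFD held a chemokine and matrix proteases. Ccl8, which attracts monocytes and other leukocytes, had 20.1, 11.9 and 28.1 CPM on CD and 72.9, 41.0 and 62.3 on HFD (log2 fold change 1.55). Mmp14, the membrane-anchored protease that activates pro-MMP2, had 217, 194 and 200.4 CPM on CD and 283, 318 and 324 on HFD (log2 fold change 0.60). Mmp3, stromelysin-1, had 39.6, 61.4 and 34.2 CPM on CD and 108, 79.8 and 99.2 on HFD (log2 fold change 1.08). By the rule of choice, none of these groups overlapped. The remaining genes were Lypd1 (1.44), Kng2 (1.46), Tspan11 (0.91), Plekha6 (0.73) and Plxdc2 (0.70), and all 10 were also called by DESeq2, with an adjusted p of at most 0.0493. Kng2 lies beside the closely similar Kng1, so reads may have been shared between them.

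Genes with lower values on HFD in this set included regulators of growth and an abundant enzyme of adipocytes. Car3, carbonic anhydrase 3, had 2170.4, 1177 and 1885 CPM in the CD pools and 757, 768 and 692 in the HFD pools. The HFD pools were alike and all below the CD pools, of which pool 2 was the lowest, and the log2 fold change was -1.24 (standard error 0.24, unadjusted p = 0.00117). Plagl1, an imprinted zinc finger factor, had 14.8, 14.9 and 13.4 CPM on CD and 6.00, 7.83 and 5.09 on HFD (log2 fold change -1.19). Cdkn1c, the imprinted inhibitor of cyclin-dependent kinases p57, had 61.8, 64.7 and 79.4 CPM on CD and 15.6, 40.5 and 16.1 on HFD (log2 fold change -1.51). For Cdkn1c HFD pool 2 stood nearer to the CD pools than pools 1 and 3 did. Others were Aldh1a2, a retinoic acid synthase (-0.74), Nol3 (-0.57), the metallothionein Mt3 (-1.05), Cyb5a (-0.53) and Dio2, which activates thyroid hormone (-1.91), together with the HGF receptor Met, which had 32.8, 36.2 and 21.9 CPM on CD and 17.7, 17.8 and 9.95 on HFD. DESeq2 called Plagl1, Car3 and Aldh1a2. None of the 10 lower genes of this set, not all of which are reported here, passed with edgeR.

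**Figure D2:**
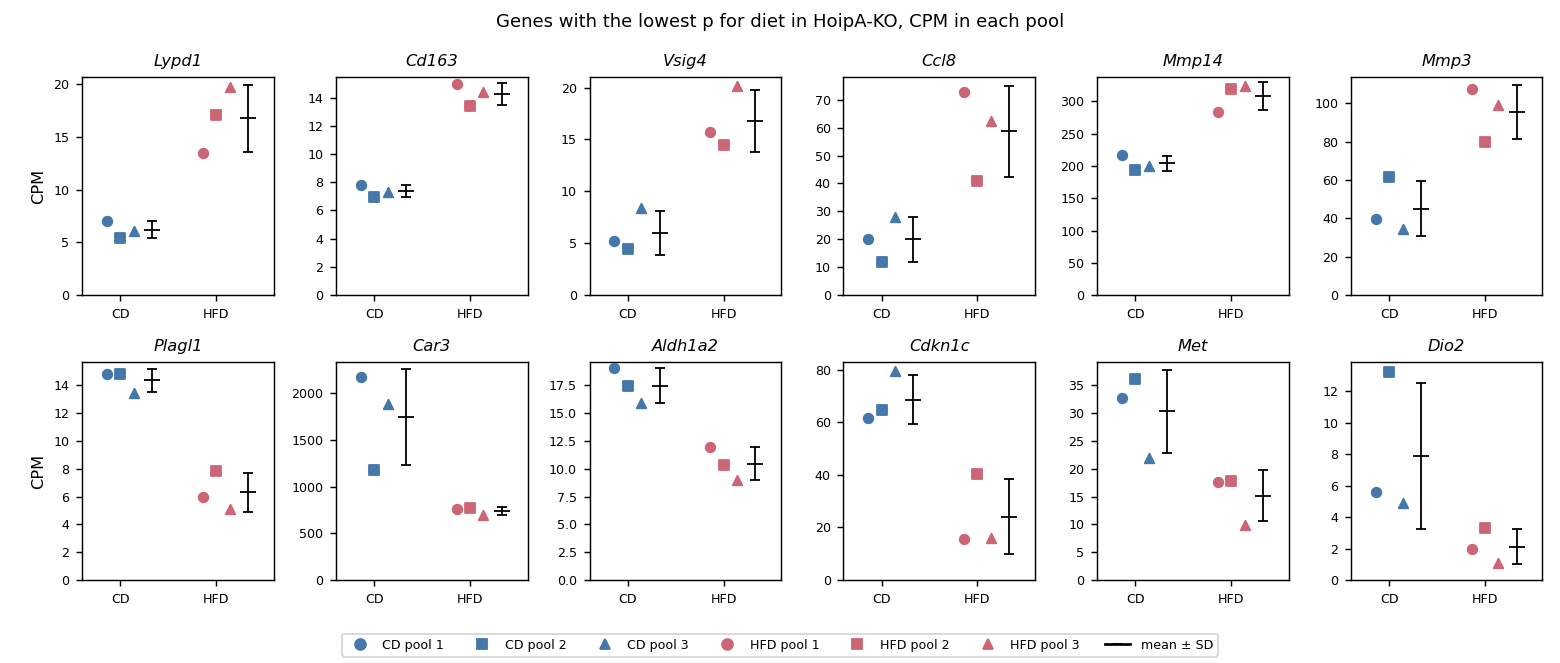
TMM-normalized CPM in each HoipA-KO pool (marker shape gives the pool, colour the diet) for 12 of the genes named by the lowest unadjusted p, with the mean and SD of each diet as bars. In every panel the 3 HFD pools lie outside the range of the 3 CD pools, because the genes were picked for this. No gene passed the adjusted threshold of 0.05 with edgeR.

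The lowest unadjusted p of all genes belonged to Cyp4a10, a fatty acid omega-hydroxylase and classical target of PPAR alpha, named after its values were seen. It had 2, 7 and 4 counts in the CD pools and 45, 76 and 76 in the HFD pools, or 0.0407, 0.126 and 0.0835 CPM against 0.854, 1.71 and 1.38. The log2 fold change was 3.92 (standard error 0.53, unadjusted p = 0.00013, adjusted p = 0.999 by edgeR and 1.74e-05 by DESeq2). Cyp4a10 belongs to a cluster of near-identical genes, so its counts are uncertain. Of the 13 PPAR alpha targets tested, 10 had an estimate above 0 (median 0.19), and in 3 the HFD pools all lay above the CD pools (3.36% of all genes did). Cyp4a10 is on this list, so these counts are not independent of it. The median was 0.077 without HFD pool 1 and 0.31 without HFD pool 2. Of the abundant members, Angptl4 (0.27) and Cpt1a (-0.13) did not share a direction, and the estimate of Cpt1a was 0.096 without CD pool 2.

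Adipocyte genes had low estimates on HFD without passing the test. All 10 genes of the adipocyte list had an estimate below 0 (median log2 fold change -0.34, against -0.0038 over all genes), and 0 had an unadjusted p under 0.05. The mean of log2(CPM + 1) over the list, called its score here, was 8.22, 7.51 and 8.41 in the CD pools and 7.94, 7.06 and 7.87 in the HFD pools. Pool 2 was the lowest on each diet and the diets overlapped. Each HFD pool was below the CD pool of the same number, but the labels do not say what the numbers stand for. Without CD pool 3 or without HFD pool 2 the median was -0.15. Plin1, which coats the lipid droplet, had 345, 243 and 415 CPM on CD and 328, 182 and 287 on HFD (log2 fold change -0.33, 95% interval -0.98 to 0.32). Adipoq, which encodes adiponectin, had 469, 301 and 508 CPM on CD and 381, 206 and 330.0 on HFD (-0.48, -1.15 to 0.19). The most abundant members were the fatty acid carrier Fabp4 (-0.08), the lipid droplet protein Cidec (-0.14) and Pnpla2 (-0.21), and the estimates of Fabp4 and Cidec changed sign without CD pool 3 (0.046 and 0.018) and without HFD pool 2 (0.060 and 0.079). In such bulk samples fewer adipocytes and less of each RNA per adipocyte cannot be told apart.

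Genes of lipid mobilisation had low estimates as well. All 13 lipolysis genes tested were below 0 (median -0.21), with the hormone-sensitive lipase Lipe at -0.35, and Mgll, which cleaves monoglycerides, at -0.07. The sign for Mgll changed without CD pool 3 (0.0085) and without HFD pool 2 (0.062). Pnpla2, the lipase of the first step, had 512, 459.9 and 559 CPM on CD and 424, 448 and 456 on HFD, so that its diets did not overlap although the unadjusted p was 0.162. De novo lipogenesis had 6 of 13 estimates above 0 (median -0.013, which became 0.11 with library size as the only scaling, 0.32 without HFD pool 2 and -0.17 without HFD pool 1). Triglyceride synthesis had 2 of 10 above 0 (median -0.12, and 0.025 without HFD pool 2). Fatty acid oxidation had 5 of 17 above 0 (median -0.073, and 0.021 with library size only), and all 17 intervals lay within -1 to 1.

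The adipokine list was divided, with 4 of 10 estimates above 0 (median -0.088, and 0.026 with library size only, -0.45 without HFD pool 1 and 0.20 without HFD pool 2). Lep, which encodes leptin and rises with adipocyte size, had 908, 818 and 1056 CPM on CD and 1366, 549 and 863 on HFD, so that the highest and the lowest pool were both HFD pools. The estimate was -0.0021 (95% interval -0.75 to 0.75), and it was -0.39 without HFD pool 1 and 0.26 without HFD pool 2. Retn, which encodes resistin, had an estimate of -0.54 (-1.66 to 0.59). Rbp4, the retinol carrier, had 0.27 (-1.22 to 1.77), and -0.50 without HFD pool 1 or -0.099 without CD pool 2. Pparg, the master regulator of adipocyte differentiation, had -0.08 (-0.48 to 0.31), and 0.038 without CD pool 1. With library size only, the estimates of Fabp4 (0.020), Mgll (0.034), Lep (0.12) and Pparg (0.0065) were above 0. The angiogenic factor Vegfa was at -0.0039, and -0.25 without HFD pool 1 or 0.28 without HFD pool 2.

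Estimates for macrophage genes differed in sign by subtype, without a gene that passed, and the difference between subtypes was not tested. The 10 genes of lipid-associated macrophages, the cells of crown-like structures, had 1 estimate above 0 (median -0.42, from -0.22 without HFD pool 1 to -0.62 without HFD pool 2), whereas the 8 genes of resident macrophages had 6 above 0 (median 0.53), and 3 of these 8 had all HFD pools above all CD pools (3.36% of all genes did). The resident list had a score of 4.42, 4.19 and 4.53 in the CD pools and 4.79, 4.81 and 4.67 in the HFD pools, without overlap. The list holds Cd163, named above for its low p, so the direction of the list is not independent of it. Folr2, a folate receptor of resident macrophages, had 85.4, 106 and 145 CPM on CD and 166, 159 and 243 on HFD. F13a1, a coagulation factor made by these cells, had 60.0, 55.4 and 48.7 CPM on CD and 89.8, 87.7 and 69.1 on HFD. The third abundant member, Gas6, ran the other way at -0.26. The median of this list was between 0.37 and 0.64 when any of the 6 pools was left out. The general macrophage list had 6 of 9 above 0 (median 0.18, and -0.052 without CD pool 3), and Adgre1, which encodes F4/80, had 499.7, 676 and 331 CPM on CD and 425, 655 and 624 on HFD (log2 fold change 0.18, and -0.052 without CD pool 3).

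The lipid-associated macrophage genes were split among the HFD pools rather than between the diets. Their score was 10.2, 10.6 and 10.3 in the CD pools and 9.70, 10.5 and 9.69 in the HFD pools, so HFD pools 1 and 3 lay below every CD pool and HFD pool 2 among them. Mmp12, macrophage elastase, had 4375, 6119 and 3413 CPM on CD and 748, 4788 and 612 on HFD. The estimate was -1.18 (log2) with a 95% interval of -3.01 to 0.65. Gpnmb, a glycoprotein of lipid-laden macrophages, had 6437, 8693 and 5819 CPM on CD and 2864, 8000.4 and 3321 on HFD. Lgals3, which encodes MAC2, had 4237, 4718 and 5003 CPM on CD and 2327, 4883 and 3256 on HFD, and Itgax, which encodes CD11c, had 579, 594 and 498 against 229, 605 and 343. In all 4 genes HFD pools 1 and 3 were below the lowest CD pool and HFD pool 2 was not. Lpl, the lipoprotein lipase shared with adipocytes, did not show this and had 5735, 7163 and 7419 CPM on HFD (log2 fold change -0.13, and 0.045 without CD pool 2).

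The same split was counted over all genes, by a rule chosen after it was seen. Of the genes of at least 10 CPM, 24 had HFD pools 1 and 3 at least 2-fold below the lowest CD pool with HFD pool 2 not below the CD range, and 4 showed the mirror image. With either of the other HFD pools as the odd one, 0 genes did so in either direction. The 24 included Uchl1, a deubiquitinase, with 102, 114 and 118 CPM on CD and 13.4, 104 and 10.9 on HFD. They also held the serpin Serpinb9b (101, 221 and 92.4 against 9.01, 128 and 7.85 CPM), the beta-2 integrin Itgb2, the lectin receptor Clec4d, the aldo-keto reductase Akr1b8 and Rn18s-rs5, all named after their values were seen. Without HFD pool 2, edgeR called 1 gene, Uchl1 (log2 fold change -3.20, adjusted p = 0.0125), and 1598 genes had an unadjusted p under 0.05, against 443 with all 6 pools and 278 without CD pool 1. This split of the HFD pools coincided with the share of Rn18s-rs5, low in HFD pools 1 and 3, whose part was not tested.

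**Figure D3:**
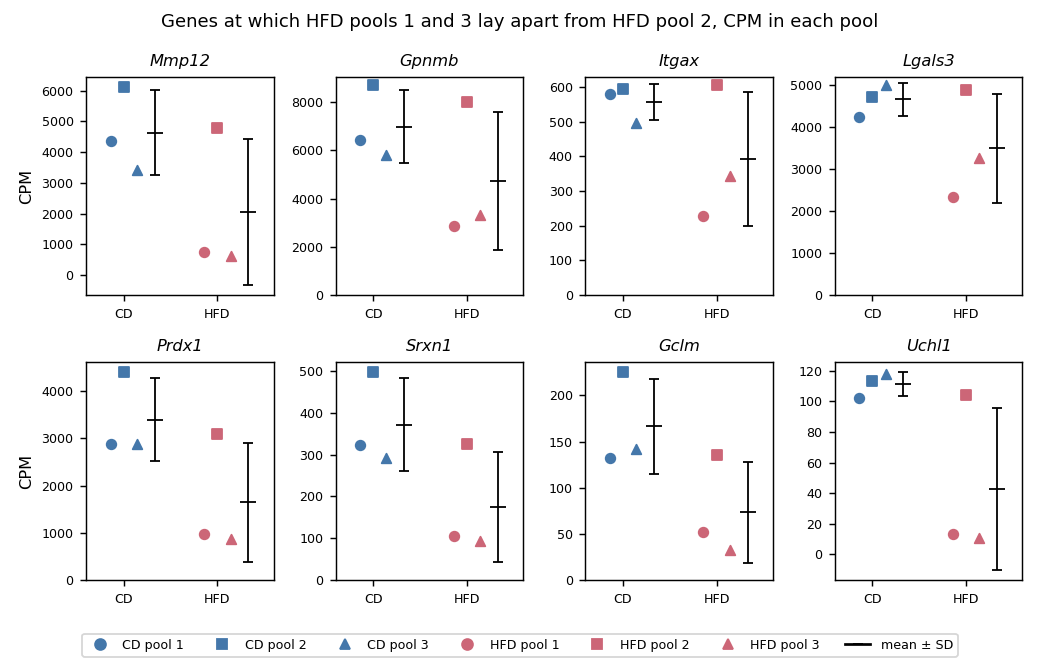
TMM-normalized CPM in each HoipA-KO pool (marker shape gives the pool, colour the diet) for 8 genes whose HFD pools disagreed, with the mean and SD of each diet as bars. In each panel HFD pools 1 and 3 lie below the CD pools and HFD pool 2 lies with them.

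NRF2 is the transcription factor that induces detoxifying and antioxidant enzymes through antioxidant response elements, and type I interferon acts through interferon-stimulated response elements. The HFD pools split over the genes of both programmes, so a stretch of promoter is shown for 3 interferon-stimulated and 2 NRF2 target genes, from 170 to 56 bases before the RefSeq transcription start, on GRCm38.p6 and in the direction of the gene. Capitals mark TTTC, any 2 bases and TTTC, or GAAA, any 2 bases and GAAA on the other strand, in the first 3, where overlapping matches run together in Isg15, and TGACNNNGC or its reverse GCNNNGTCA in the last 2.
Isg15, chr4:156200874-156200988, minus strand: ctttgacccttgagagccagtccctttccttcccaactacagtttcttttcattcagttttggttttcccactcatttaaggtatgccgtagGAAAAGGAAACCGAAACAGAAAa
Ifit1, chr19:34640719-34640833, plus strand: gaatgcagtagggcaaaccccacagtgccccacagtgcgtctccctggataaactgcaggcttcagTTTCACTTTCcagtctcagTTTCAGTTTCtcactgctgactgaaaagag
Ifit3, chr19:34583359-34583473, plus strand: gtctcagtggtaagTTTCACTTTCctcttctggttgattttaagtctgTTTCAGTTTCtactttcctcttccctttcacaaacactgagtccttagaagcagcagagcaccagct
Gclm, chr3:122245387-122245501, plus strand: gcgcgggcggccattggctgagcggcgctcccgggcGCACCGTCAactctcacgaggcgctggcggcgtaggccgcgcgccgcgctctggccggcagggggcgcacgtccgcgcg
Prdx1, chr4:116685429-116685543, plus strand: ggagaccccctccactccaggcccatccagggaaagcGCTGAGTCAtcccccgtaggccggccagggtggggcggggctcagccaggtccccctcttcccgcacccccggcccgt
In the 250 bases before the start, on both strands, the interferon motif was found in 9 of the 13 interferon-stimulated genes with a promoter in the table (69.2%), against 3.46% of 27025 promoters. The NRF2 motif was found in 6 of 12 NRF2 targets (50%), against 11.5% of all promoters. Every promoter shown above holds a match, so the stretches do not stand for the whole lists. Irf7, Slc7a11 and Taldo1, described below, had no match in the 250 bases. The lists were made of genes of these programmes, so the excess over all promoters may come with the choice of genes. It tells nothing about the diet. A match describes these letters and is not evidence that the factor was bound.

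NRF2 targets had 1 of 15 estimates above 0 (median -0.72), and 2 of the 15 had an unadjusted p under 0.05, both lower (0.785% of all genes). Their score was 7.28, 7.56 and 7.28 in the CD pools and 6.40, 7.33 and 6.08 in the HFD pools, so HFD pools 1 and 3 again lay below every CD pool and HFD pool 2 within their range. Prdx1, a peroxiredoxin that removes hydrogen peroxide, had 2890.3, 4417 and 2892 CPM on CD and 972, 3094 and 874 on HFD (log2 fold change -1.05, 95% interval -2.24 to 0.14). Gclm, the modifier subunit of the enzyme that makes the glutathione precursor, had 132, 226 and 142 CPM on CD and 51.5, 135 and 33 on HFD, and was named after its values were seen. Hmox1, haem oxygenase 1, had 496, 805 and 633 against 307, 620.2 and 238 CPM, and Taldo1, transaldolase, had 522, 587 and 593 against 277, 530.0 and 268. In these 4 genes HFD pools 1 and 3 were below all CD pools and HFD pool 2 was within the CD range. Slc7a11, the cystine transporter, also named after its values were seen, had no overlap, with 7.94, 14.0 and 5.40 CPM on CD and 2.49, 5.38 and 1.10 on HFD. The ferritin heavy chain Fth1, of the list of iron genes, had no overlap either, with 6714, 7306 and 6757 against 2943, 6308 and 2654 CPM, and all other pools stood far above HFD pools 1 and 3. The median of the NRF2 list was -1.25 without HFD pool 2, -0.58 without HFD pool 1 and -0.48 without HFD pool 3. Without HFD pool 2, the pool that stood apart for this list, 11 of 15 had an unadjusted p under 0.05. In that fit 1598 of all 17328 genes had one, 679 of them lower. The pool left out was picked by the values of this list, so the count of 11 is no separate result.

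Interferon-stimulated genes had estimates of the opposite sign with the same pools apart. All 20 had an estimate above 0 (median 0.58), 8 had an unadjusted p under 0.05 (1.85% of all genes did, with a higher estimate), and in 4 every HFD pool lay above every CD pool (3.36% of all genes). The score was 3.94, 3.87 and 3.82 in the CD pools and 4.52, 3.93 and 4.72 in the HFD pools, so that HFD pool 2 fell within the range of the CD pools. Irf7, the factor that amplifies interferon signalling, had 14.4, 13.7 and 16.3 CPM on CD and 44.0, 15.5 and 32.0 on HFD (log2 fold change 1.04). Isg15, a ubiquitin-like modifier, had 4.97, 5.56 and 5.90 CPM on CD and 11.8, 5.38 and 9.28 on HFD (0.69). Ifit3, which binds viral RNA in a complex with Ifit1, had 18.4, 11.5 and 14.0 against 32.6, 16.9 and 27.9 CPM (0.82), and Ifit3 has a near-identical neighbour, so its counts may have been divided. In these 3 genes, named after their values were seen, HFD pool 2 lay within the CD range and HFD pools 1 and 3 above it. Zbp1, a sensor of Z-form nucleic acid that can start necroptosis, was chosen in the same way and had 5.92, 4.72 and 5.78 CPM on CD and 11.4, 6.03 and 15.2 on HFD without overlap (0.99). Ifi27l2a (1.02) and Gbp2 (0.54) were among the most abundant members. Without HFD pool 2, the pool that stood apart for this list, the median was 0.79 and 18 of 20 had an unadjusted p under 0.05. In that fit 1598 of all 17328 genes had one, 919 of them higher. Here too the pool left out was picked by the values of the list, so the count of 18 is no separate result. Without HFD pool 3 the median was 0.39. In that fit 2 of the 20 had an unadjusted p under 0.05, against 380 of all 17147 genes, 317 of them higher.

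**Figure D4:**
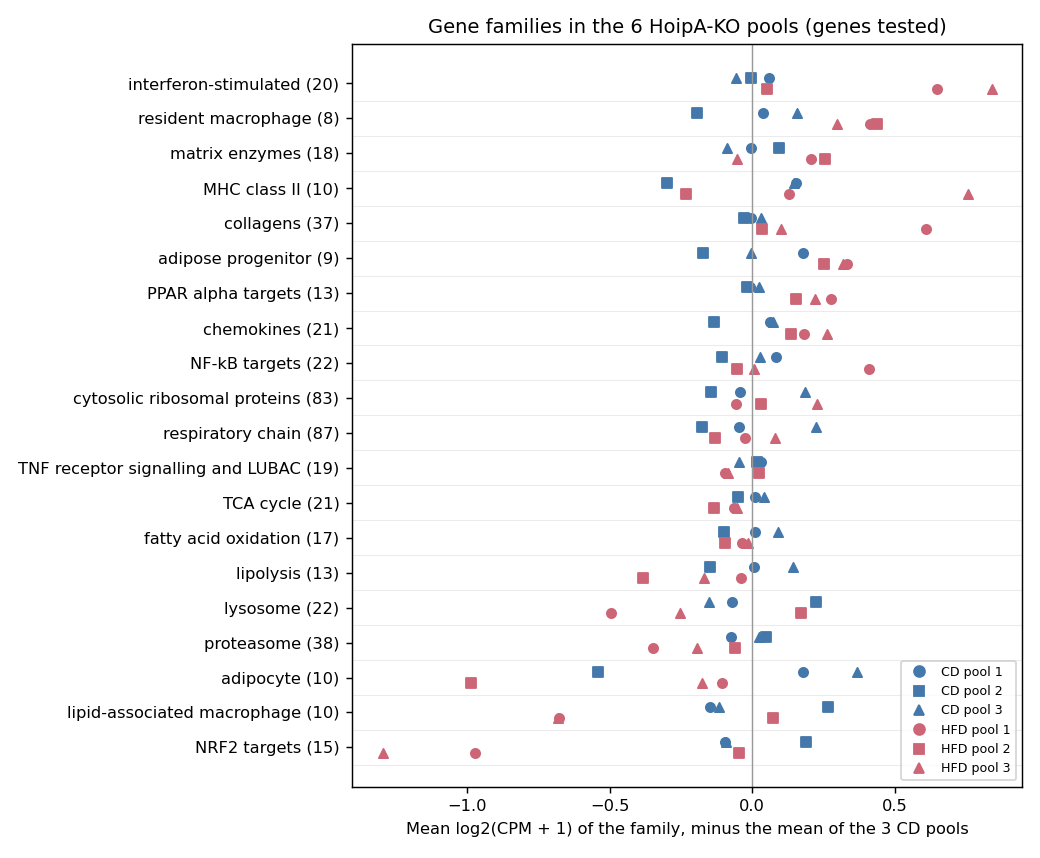
Score of 20 gene lists in each HoipA-KO pool (mean log2(CPM + 1) of the list minus the mean of the 3 CD pools), with 1 row per list, the number of genes in brackets, the diet given by colour and the pool by shape. HFD pools 1 and 3 lie below the CD pools for NRF2 targets and lipid-associated macrophage genes and above them for interferon-stimulated genes, with HFD pool 2 among the CD pools.

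Over the 67 gene lists, 31 medians were above 0 and 36 below, and 0 lists had a member called by edgeR. In 5 lists every HFD score lay above every CD score, namely resident macrophage, adipose progenitor, PPAR alpha targets, chemokines and collagens. In 1, the TCA cycle, every HFD score lay below. Of all genes, 3.36% lay above without overlap and 2.48% below. With 3 pools on each diet, some lists separate by the order of the pools alone, so the lists named are not shown to differ. For collagens the gap was narrow, from 5.109 in CD pool 3 to 5.112 in HFD pool 2, with HFD pool 1 at 5.684. For the TCA cycle it ran from 6.918 in CD pool 2 to 6.911 in HFD pool 3. The lists of resident macrophages, PPAR alpha targets and chemokines hold Cd163, Cyp4a10 and Ccl8, each named above for its low p. In 7 of the lists, HFD pools 1 and 3 were above the CD pools with pool 2 not, and in 8 others they were below with pool 2 not. Directions depended on scaling to some extent, since library size as the only scaling moved the median of all genes from -0.0038 to 0.089 and the share of estimates above 0 from 49.1% to 69.5%.

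Adipose progenitor genes, collagens and matrix enzymes had mostly positive estimates. All 8 endothelial genes and all 8 pericyte and smooth muscle genes were also above 0. Mesothelial (2 of 7 above 0), lymphatic endothelial (1 of 6) and Schwann cell genes (0 of 5) ran mostly the other way. Of 9 adipose progenitor genes 8 were above 0 (median 0.20, and 0.35 without CD pool 1), 3 had an unadjusted p under 0.05 (1.85% of all genes, with a higher estimate) and 4 had no overlap (3.36%). Their score was 7.25, 6.90 and 7.07 in the CD pools and 7.40, 7.32 and 7.39 in the HFD pools, with all HFD pools close together. Lum, the collagen-binding proteoglycan lumican, had 327, 304 and 224 CPM on CD and 442, 450.1 and 443 on HFD (log2 fold change 0.64, unadjusted p = 0.00611). Pi16, a marker of early progenitors, had 21.7, 14.8 and 23.3 against 36.8, 31.3 and 37.8 CPM (0.83), and Pdgfra, the growth factor receptor that defines these cells, had 126, 109 and 114 against 131, 158 and 153 (0.34), both named after their values were seen. Decorin, Dcn (0.19), and Col15a1 (0.11, and -0.0039 without CD pool 1) were the other abundant members and overlapped.

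Collagens had 30 of 37 estimates above 0 (median 0.23), and 4 had all HFD pools above all CD pools (3.36% of all genes did). Col1a1, the main chain of fibrillar collagen, had 835, 1377 and 1023 CPM on CD and 1773, 1408 and 1557 on HFD, a narrow gap between CD pool 2 and HFD pool 2 (log2 fold change 0.55). Col1a2 had 0.39, and Col3a1 0.20, or -0.0053 without CD pool 1. The collagen median was 0.12 without HFD pool 1, the pool with smooth muscle transcripts. Of 18 matrix enzymes and their inhibitors 14 were above 0 (median 0.24, from 0.12 without HFD pool 1 to 0.42 without CD pool 2). An unadjusted p under 0.05 was found for 6 higher (1.85% of all genes) and 0 lower, and 6 lay higher without overlap (3.36% of all genes). The list holds Mmp14 and Mmp3, named above for their low p, so these counts are not independent of them. Mmp2, gelatinase A, was named after its values were seen and had 357, 299 and 297 CPM on CD and 425, 544 and 521 on HFD (0.64). Timp2, an inhibitor of these proteases, was at 0.06 and changed sign without HFD pool 2 (-0.052), and the macrophage protease Mmp19 had 202, 622 and 208 CPM on HFD against 481, 808 and 422 on CD, the split seen for Mmp12.

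The genes nearest to HOIP itself differed little. For all 19 genes of TNF receptor signalling and LUBAC the 95% interval lay within -1 to 1, with 6 estimates above 0 and a median of -0.060 (0.031 with library size only). Of 21 cell death genes 8 were above 0 (median -0.046, and 0.047 with library size only or 0.028 without CD pool 2), and 20 intervals lay within -1 to 1. Casp8, the initiator caspase of the TNF receptor, had 69.9, 92.4 and 72.1 CPM on CD and 64.4, 76.6 and 69.1 on HFD (-0.16, -0.51 to 0.19). Mlkl, the executor of necroptosis, had 27.2, 34.6 and 26.6 against 17.4, 27.5 and 18.0 CPM (-0.49, unadjusted p = 0.0499), and HFD pool 2 overlapped the CD pools. NF-kB targets were balanced, with 11 of 22 above 0 (median 0.012, and -0.023 without HFD pool 1). Ptgs2, cyclooxygenase 2, had 419 CPM in HFD pool 1 and 0.615 to 1.53 in the other pools, so that its log2 fold change of 6.92 became -0.84 without that pool.

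Inflammatory genes of adipose tissue showed no common direction. Tnf had 4.36, 2.84 and 4.13 CPM on CD and 2.18, 2.59 and 2.59 on HFD, without overlap (log2 fold change -0.62, unadjusted p = 0.0443). Il1b had at most 1.67 CPM in any pool (-0.15, 95% interval -1.58 to 1.28, and 0.40 without CD pool 2). The inducible nitric oxide synthase Nos2 was at 0.49, the chemokine receptor Ccr2 at -0.35, the scavenger receptor Cd36 at -0.43 and Ptprc, which encodes CD45, at -0.38. Ccl2 had 25.4, 48.5 and 26.9 CPM on CD and 26.9, 39.0 and 32.6 on HFD (-0.03, and 0.33 without CD pool 2), and Csf1, the macrophage growth factor, was at -0.06. Of 21 chemokines 13 were above 0 (median 0.21), with the abundant Ccl9 (-0.34), Ccl6 (-0.26) and Cxcl12 (0.41). Ccl12, named after its values were seen, had 1.67, 1.10 and 1.65 CPM on CD and 5.39, 2.86 and 2.84 on HFD, and Cxcl13, a B cell attractant chosen in the same way, had 2.22, 3.35 and 4.24 against 1.75, 1.71 and 1.36. MHC class II genes had 8 of 10 above 0 (median 0.39), and 5 of 10 without HFD pool 3, where the median was -0.0023.

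For housekeeping complexes the estimates were small and no gene passed. Of 38 proteasome genes 34 had an estimate below 0 (median -0.22), and in 7 every HFD pool lay below every CD pool (2.48% of all genes did). The abundant subunits Psmd2 (-0.29), Psmd8 (-0.18) and Psmb6 (-0.27) overlapped between the diets. Psmb5, the chymotrypsin-like subunit, named after its values were seen, had 146, 154 and 197 CPM on CD and 105, 143 and 117 on HFD. TCA cycle genes had 19 of 21 below 0 (median -0.083, which was 0.014 with library size only), and in 5 every HFD pool lay below every CD pool (2.48% of all genes did). Citrate synthase, Cs, had 276, 280.4 and 281 CPM on CD and 246, 241 and 245 on HFD, a difference larger than the spread between pools (log2 fold change -0.19) that had an unadjusted p of 0.121. Sdha had 255, 233 and 229 against 225, 221 and 216 CPM, also without overlap, while Ogdh (-0.08) overlapped. Respiratory chain genes had 22 of 87 above 0 (median -0.052, and 0.044 with library size only), a tally that was 69 of 87 without CD pool 3 (median 0.094) and 7 of 87 without CD pool 2 (median -0.13), and 83 intervals lay within -1 to 1. Cytosolic ribosomal protein genes had 72 of 83 above 0 (median 0.071), a direction that was lost without CD pool 2 (-0.0026) and without HFD pool 3 (-0.026).

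The spread between HoipA-KO pools was larger on HFD. The biological coefficient of variation was 0.346 among the HFD pools and 0.238 among the CD pools when each was fitted alone, and 0.296 over both. Between WT pools it was 0.254 on HFD and 0.764 on CD, where WT CD pool 3, left out of the comparisons below, is included. The typical gene did not show this difference, since over the 13964 genes of at least 1 CPM the median SD on the log2 scale was 0.195 among the CD pools and 0.186 among the HFD pools, and the SD was larger on HFD for 48.6%. The root mean square distance between pools was 0.478 to 0.733 on the log2 scale within CD, 0.730 to 1.01 within HFD and 0.539 to 0.977 between the diets. The closest pair of different diets, CD pool 3 and HFD pool 3 (0.539), was closer than any pair of HFD pools.

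The response to HFD in WT GWAT was taken as reference, in 1 model of 11 libraries without WT CD pool 3. There 2731 of 18427 genes passed an adjusted p of 0.05 (14.8%, edgeR), 1723 higher on HFD (9.35%) and 1008 lower (5.47%), while 0 passed in HoipA-KO and 415 had an unadjusted p under 0.05 (2.25%). The 1723 genes higher in WT had a median log2 fold change of 1.82 in WT and -0.017 in HoipA-KO, where 816 (47.4%) had an estimate above 0, against 47.2% of all genes tested, of which 52.7% had an estimate below 0. Without single libraries this share ran from 39.1% (without HFD pool 2, median -0.11) to 65.2% (without CD pool 2, median 0.10). For 1692 of them the HoipA-KO estimate was within -1 to 1, and for 1078 the whole 95% interval was. For 1322 of them the HoipA-KO mean on CD was already above the WT mean on HFD, as for 9708 of all 18427 genes. The 1008 genes lower in WT had a median of -1.62 in WT and -0.0023 in HoipA-KO, where 49.1% had an estimate above 0. Without single libraries this median ran from -0.10 to 0.086, and the share above 0 from 23.4% to 65.3%. The low ends came without WT CD pool 2, which held epididymal transcripts and left 1 WT CD pool, and the high ends without CD pool 3. The WT and HoipA-KO comparisons share no library.

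**Figure D5:**
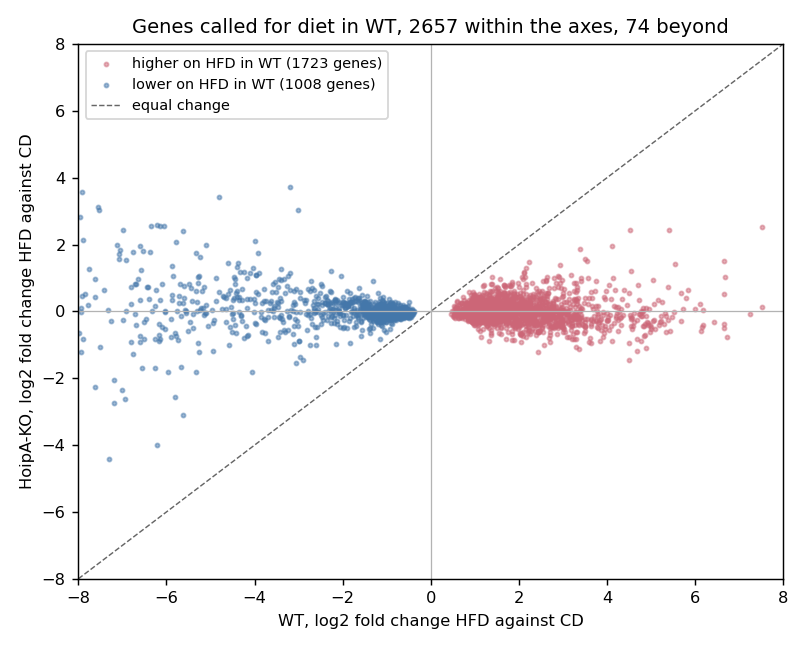
Log2 fold change of HFD against CD in WT (x axis) and in HoipA-KO GWAT (y axis) for the genes called for diet in WT, from the model of 11 libraries. The dashed line marks equal change, 74 of the 2731 genes lie beyond the axes, and the genes spread along the WT axis, with medians of 1.82 and -1.62, around 0 on the HoipA-KO axis.

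The difference of the diet effect between the genotypes was tested itself. It passed an adjusted p of 0.05 for 721 genes (3.91%), of which 660 had the lower effect in HoipA-KO (3.58%) and 61 the higher (0.331%), again in edgeR. Of the 1723 genes higher in WT, 658 were among them. The test of the difference subtracts the WT estimate by which those genes were picked, so this overlap is not independent of the choice. These counts depended on single libraries. Between 1 and 4 genes were called without CD pool 1, 2 or 3, HFD pool 1 or 3, WT CD pool 2 or WT HFD pool 2, while 643 were called without HFD pool 2, 999 without WT HFD pool 1, 226 without WT HFD pool 3 and 3668 without WT CD pool 1. A replicate block gave 377 and DESeq2 2374. The WT count itself ran from 1045 without WT HFD pool 3 to 5985 without WT CD pool 1.

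Macrophage genes were among those that passed. Gpnmb had 25.6 and 31.7 CPM in WT CD pools 1 and 2 and 347, 984 and 2381 in the WT HFD pools, all below the lowest HoipA-KO pool, and its diet effect was lower in HoipA-KO by 6.01 on the log2 scale (log2 difference -6.01, standard error 1.05, edgeR adjusted p = 0.0256). Itgax had 6.51 and 6.21 CPM on CD and 61.6, 134 and 258 on HFD in WT, with a log2 difference of -5.09. Adgre1 had 13.3 and 19.6 against 101, 260 and 518 CPM in WT, with a difference of -4.00. Lgals3 (-3.27), Ptprc (-3.39), Ccr2 (-2.34), Tnf (-2.73) and Ccl2 (-3.15) also passed the test of the difference. For the lipid-associated macrophage list the median was 2.96 in WT, with 7 of 10 called higher (9.35% of all genes were) and 7 called for the difference (3.91% of all genes). The mean score of this list was 10.4 in HoipA-KO on CD and 8.58 in WT on HFD. Cell cycle genes had a median of 1.74 in WT, with 16 of 23 called higher and 11 called for the difference (9.35% and 3.91% of all genes), against 0.022 in HoipA-KO. Their mean score was 4.68 in HoipA-KO on CD and 3.96 in WT on HFD. In both lists the test of the difference uses the WT libraries behind the WT calls, so these counts are not independent.

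Lep had 2088 and 556 CPM in WT CD pools 1 and 2 and 5291, 3468 and 3073 on HFD. Its WT estimate of 1.58 (adjusted p = 0.0818, edgeR) and the difference of -1.60 (adjusted p = 0.217, edgeR) missed the threshold, and both passed without WT CD pool 1, with an estimate of 2.84 in WT and a difference of -2.85. The WT estimate also passed with DESeq2 (adjusted p = 0.0129), with 12 libraries in edgeR (adjusted p = 0.0428) and with the replicate block in edgeR (adjusted p = 0.0434), where the difference did not pass. Car3 was at -0.93 in WT and -1.25 in HoipA-KO in this model, and Cd163 at 0.38 and 0.93, and for neither did the difference pass (adjusted p = 0.793 and 0.280, edgeR). For the interferon-stimulated list the median was 0.44 in WT and 0.57 in HoipA-KO. Of its 20 genes, 3 were called higher in WT (9.35% of all genes were) and 0 for the difference (3.91% of all genes). For NRF2 targets the median was -0.38 in WT and -0.74 in HoipA-KO, with 1 of 15 called for the difference, Hmox1. The adipocyte list had -0.35 and -0.36, with 0 of 10 called for the difference. At a share of 3.91% over all genes, lists of this size need not hold a called gene. These counts therefore do not show an equal response in the genotypes.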

How the data were processed

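GWAT RNA was sequenced after poly(A) selection (stranded, paired-end), and the authors ran the nf-core rnaseq pipeline 3.7 with Trim Galore 0.6.7, STAR 2.7.10a and Salmon 1.5.2. The deposited values are estimated counts per gene (55281 genes), which need not be whole and were rounded here. The submitters' notes name GRCm38, the methods a human build. The deposited tables of the authors' own comparisons (log2 fold changes, p-values, CPM) were not used. HFD was compared with CD over the 6 HoipA-KO libraries with edgeR 4.0.16 (R 4.3.3) by filterByExpr, TMM and the quasi-likelihood test, with Benjamini-Hochberg adjustment at 0.05, two-sided. Fold changes used a prior count of 0.125. The diet effect in WT and its difference between genotypes came from a 4-group model of 11 libraries, without WT CD pool 3, as in the study's comparisons. Alternatives were DESeq2 1.42.0, limma 3.58.1 (voom), other scalings and filters, a table of 21646 protein-coding genes, thresholds, a replicate block, and leaving out each library. The scripts were tested on simulated data.

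Labels gave the groups and the replicate numbers. Deviations from the diet means correlated between same-numbered pools (r = 0.199, 0.539 and 0.342 over 13964 genes). However, HFD pool 1 correlated more with CD pool 3 (r = 0.281), and deviations from a mean of 3 pools depend on each other. The labels do not say what the numbers stand for, so whether the pools are paired is not known. The main test took them as unpaired, and the replicate block was an alternative. The pools are described as separate only by their labels, and p-values measure the spread between them. Counts of 3 or fewer were taken as the floor, for counting error only. Genes were named by lowest unadjusted p (10 per direction, at least 5 CPM, no overlap), as the 3 most abundant of a list, by largest changes in WT, or as genes the study turns on, and Gm and Rik models were left out. Others are marked where they appear, and a few named genes are not reported here. The gene lists and members were chosen with earlier results of these data known. Promoters came from RefSeq (GRCm38.p6), matched by symbol.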

Additional observations from a re-analysis of the deposited data

Results flagged for a closer look

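The diet effect differed between HoipA-KO and WT GWAT for 721 genes by edgeR's quasi-likelihood test of the difference, 660 with the lower and 61 with the higher effect in HoipA-KO, and these counts fell to between 1 and 4 when any of 7 libraries was left out, as given above. Each value below is the HoipA-KO diet effect minus the WT diet effect on the log2 scale. A lower value concerns the change with diet and not the level of the gene. Macrophage and leukocyte genes with the lower diet effect in HoipA-KO were Gpnmb (-6.01), Mmp12 (-5.86), Itgax (-5.09), Itgad (-6.12), Tm4sf19 (-7.03), Adgre1 (-4.00), Ctss (-3.96), Lgals3 (-3.27), Ptprc (-3.39), Ccr2 (-2.34) and Tnf (-2.73). Secreted mediators and chemokines were Il1rn (-5.63), Ccl9 (-3.41), Ccl2 (-3.15) and Ccl6 (-2.73). Matrix genes were Lum (-2.69), Col1a1 (-1.91), Col1a2 (-1.67) and Timp2 (-1.53). Others were Hmga2 (-6.15), Dhrs9 (-5.68) and Hmox1 (-2.84). With the replicate block in edgeR the difference missed the threshold for Mmp12 (adjusted p = 0.0927) and Itgad (adjusted p = 0.0775). With 12 libraries in edgeR it did so for Itgad (adjusted p = 0.345), Tm4sf19 (adjusted p = 0.0513) and Hmga2 (adjusted p = 0.0699). Not every gene above was checked in this way.

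Genes with the higher effect in HoipA-KO were Gpx3 (3.85), Slc2a3 (3.21), Dennd2d (2.25) and Gstt3 (2.11). Of these, Gpx3 (adjusted p = 0.0687) and Gstt3 (adjusted p = 0.0742) missed the threshold with the replicate block in edgeR. With 12 libraries in edgeR, Gpx3 (adjusted p = 0.126), Dennd2d (adjusted p = 0.119) and Gstt3 (adjusted p = 0.0560) missed it. The fitted values for Crisp1 (27.59) and Wfdc15b (20.03) rest on WT CD pool 2 and HFD pool 1, which held epididymal transcripts, and became 12.41 and 7.22 without the former and 18.89 and 15.31 without the latter. They depend on the prior count and are no bounds. Groups of 3 libraries were too small for a check of single outlying libraries.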

How the results depend on the processing

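No alternative of edgeR or voom that kept all 6 pools called a gene for diet in HoipA-KO, while DESeq2 called 19 and leaving out single libraries gave 0 to 1. Genes at an unadjusted p under 0.05 numbered 955 without a filter, 1959 with voom, 252 with 12 libraries and 1300 with the replicate block, which called none in HoipA-KO, and 278 to 1598 without single libraries. The share of intervals within -1 to 1 was 40.6% without a filter. In WT, DESeq2 called 4551 genes, the replicate block 1502, and leaving out single libraries gave 1045 to 5985. For the difference between genotypes DESeq2 gave 2374, the replicate block 377, and leaving out single libraries 1 to 3668. The cause of these shifts was not tested. Of the 67 list medians 37 changed sign under at least 1 alternative, as did 20 of 102 named genes. Depth limited genes near 3 counts.

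The following log2 fold changes for diet in HoipA-KO had the opposite sign. With library size only they were 0.020 for Fabp4, 0.034 for Mgll, 0.12 for Lep, 0.0065 for Pparg, 0.0072 for Ogdh, 0.0064 for Il1b, 0.062 for Ccl2, 0.027 for Csf1 and 0.11 for Vegfa. With at least 10 counts in every library they were 0.0037 for Lep and 0.00094 for Vegfa, with protein-coding genes only 0.0016 for Lep, and with the replicate block 0.013 for Ccl2. With voom they were 0.021 for Lpl, -0.062 for Dcn, -0.070 for Timp2, 0.24 for Il1b, 0.26 for Ccl2 and 0.069 for Vegfa.

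Leaving out single libraries gave log2 fold changes from -0.24 to 0.060 for Fabp4, -0.33 to 0.079 for Cidec, -0.17 to 0.062 for Mgll, -0.39 to 0.26 for Lep, -0.50 to 0.75 for Rbp4, -0.22 to 0.038 for Pparg and -0.25 to 0.28 for Vegfa. They ran from -0.23 to 0.045 for Lpl, -0.18 to 0.20 for Rsad2, -0.0039 to 0.25 for Col15a1, -0.0053 to 0.55 for Col3a1, -0.052 to 0.12 for Timp2 and -0.36 to 0.096 for Cpt1a. They ran from -0.75 to 0.40 for Il1b, -0.052 to 0.45 for Adgre1, -0.23 to 0.33 for Ccl2, -0.14 to 0.0062 for Csf1 and -0.84 to 7.50 for Ptgs2. For Crisp1 in WT they ran from -16.23 to 1.15. Among the genes lower in WT, the share above 0 in HoipA-KO was 23.4% (without WT CD pool 2) to 65.3% (without CD pool 3).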
